A study of Homo sapiens with 12 samples.

Results

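Glucose enters most tumour cells through facilitative transporters and is trapped and committed to glycolysis by a short series of enzymes. The 10 genes described here encode that entry route: the transporters SLC2A1 and SLC2A3, the hexokinases HK1 and HK2, the phosphofructokinases PFKP, PFKL and PFKM, and the regulatory enzymes PFKFB2, PFKFB3 and PFKFB4. They were chosen by gene symbol, from among 24528 genes in the table, with earlier results of the same libraries in view, so their changes against control are given as a description without p-values. All 10 passed the low-count filter and were among the 15021 genes tested.

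As background, the SLC2A transporters carry glucose down its gradient, and SLC2A3 has a higher affinity for it than SLC2A1. Hexokinases phosphorylate glucose so that it cannot leave the cell, and phosphofructokinase makes fructose 1,6-bisphosphate, the step at which sugar is committed to glycolysis. PFKFB enzymes make and remove fructose 2,6-bisphosphate, a strong activator of phosphofructokinase, and PFKFB3 is known for favouring its synthesis. High glucose uptake is a known feature of pancreatic carcinoma, where hypoxia and MYC are among the established inducers of these genes.

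The cells were MIA PaCa-2, an established human pancreatic carcinoma line grown in DMEM with fetal bovine and horse serum; the medium's glucose content is not given in the sources used here. All groups had received lentivirus carrying an shRNA and were collected by fluorescence sorting after 72 hours: a scrambled sequence in the control shRNA group, an shRNA against Musashi1 with a GFP tag in the Msi1 knockdown, one against Musashi2, tagged Tomato Red, for Msi2 knockdown, and both in the double knockdown. Each of these 4 groups had 3 libraries. Which tag the control carried, and how many hairpins served per gene, is not given in the sources used here. Nothing in the labels says that the libraries of a group came from separate cultures, so p-values refer to the spread of these libraries alone, which may be technical. Musashi proteins bind RNA and act on the translation and stability of their target transcripts.

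Levels below are counts per 1e6 counts of the scaled library (CPM). MSI1 RNA was at 4.13 to 4.93 CPM in control and fell to 1.62 to 1.96 on Msi1 knockdown and 1.45 to 2.01 on double knockdown, while MSI2 RNA was at 80.7 to 86.3 in control, 12.6 to 17.3 on Msi2 knockdown and 11.1 to 12.2 on double knockdown. MSI2 RNA was also lower in the Msi1 knockdown than in control, at 52.05 to 56.5 CPM, and MSI1 RNA was higher in the Msi2 knockdown than in control, at 5.37 to 7.001 CPM. Libraries held 10.9e6 to 35.04e6 counts in control and 26.8e6 to 56.1e6 in the knockdowns. A trend shared by many genes took up 54.1% of the variance within groups; the double-knockdown libraries scored -1.54 to -1.06 on it and the other 9 libraries -0.39 to 1.38, so the double-knockdown changes of members are also given with this trend in the model. Among markers of the line, KRT8 and VIM were at 1187 ± 30.9 and 5868 ± 21.4 CPM in control (SD, n = 3), CDH1 was at most 1.01 CPM in any library and CDKN2A had at most 1 count.

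Against control, SLC2A3, PFKP, PFKFB3 and HK2 were higher in all 3 knockdowns, with no overlap between any knockdown library and any control library. The share of all tested genes separated in this way was not counted, so nothing is read from missing overlap here or below. The log2 change of SLC2A3 was 1.20 to 1.71, that of PFKP 0.65 to 0.95, that of PFKFB3 0.38 to 1.06 and that of HK2 0.33 to 0.63. HK1, SLC2A1 and PFKM were higher by smaller amounts in 2 knockdowns each, PFKFB2 was lower in the Msi2 and double knockdowns, and PFKFB4 did not pass the threshold in any. In the Msi1 knockdown 6 members were past the threshold (adjusted p of 0.05) as higher and 1 as lower, where 18.5% of all tested genes were higher and 20.9% lower. The Msi2 knockdown gave 6 higher and 1 lower, with 16.7% of all genes higher and 13.6% lower. The double knockdown also gave 6 and 1, with 26.6% and 25.3% of all genes. With the trend in the model, 7 members were past the threshold in the double knockdown, all of them higher, beside 38.8% of all genes called in either direction. Their log2 changes were then 1.75 for SLC2A3, 0.92 for PFKP, 0.83 for PFKFB3, 0.54 for HK2, 0.42 for SLC2A1, 0.34 for HK1 and 0.22 for PFKM. Nothing is read from these shares, since the members were picked with these comparisons known. The median log2 change of the 10 members was 0.30, 0.23 and 0.35 on knockdown of Msi1, of Msi2 and of both, where the medians of all tested genes were -0.0018, -0.0021 and -0.015.

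**Figure D1:**
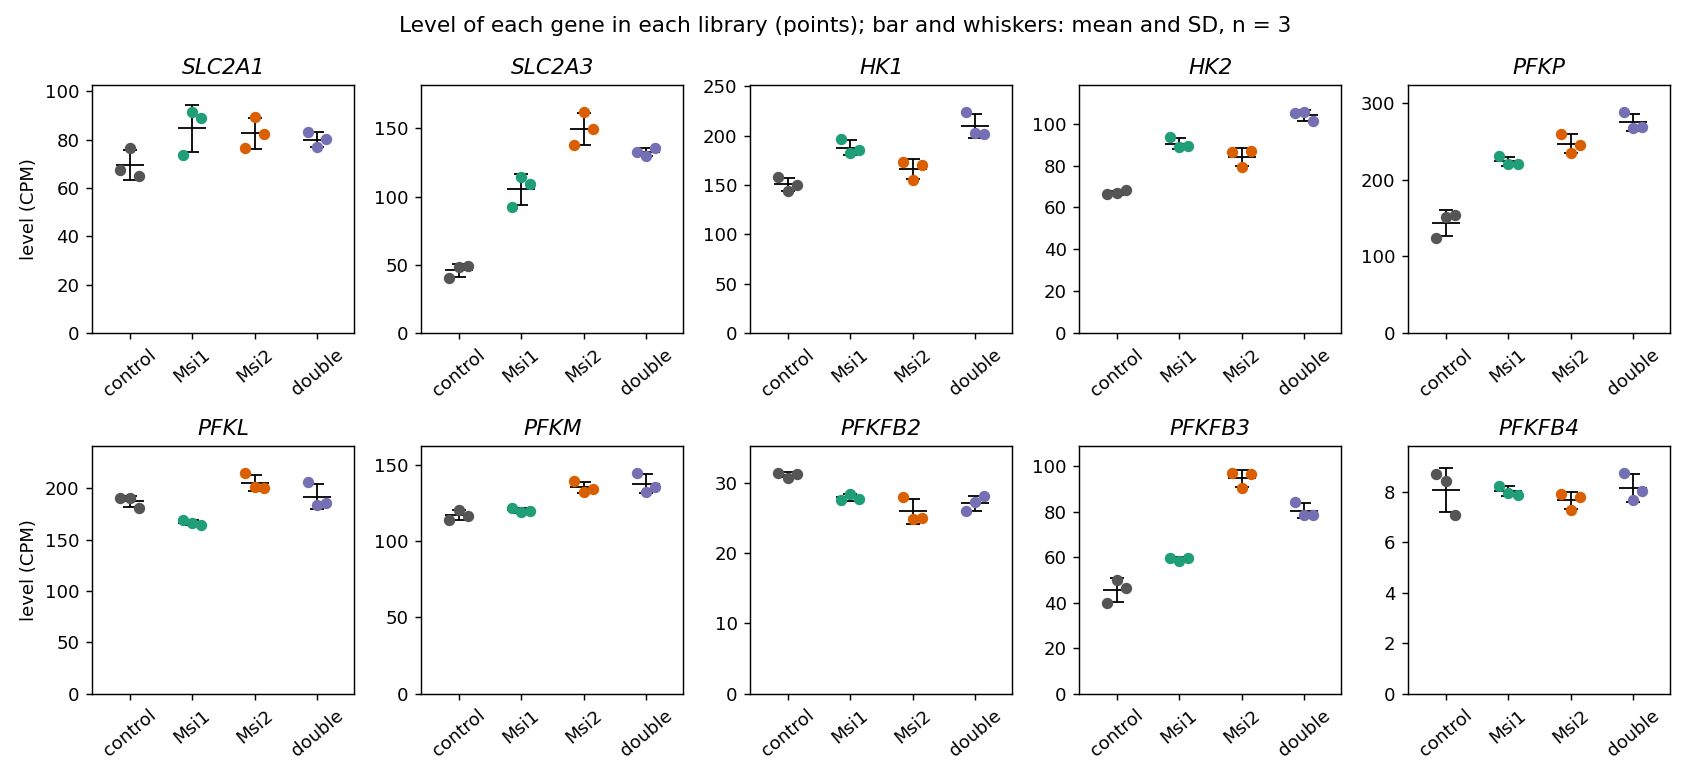
Level of each of the 10 genes in each of the 12 libraries, in CPM on linear axes that start at 0. Points are libraries and the bar with whiskers is the mean and SD of 3 libraries. SLC2A3, PFKP, PFKFB3 and HK2 lie above all control libraries in every knockdown, whereas the points of PFKFB4 overlap in all groups.

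SLC2A3, the high-affinity transporter, was at 40.4, 48.6 and 48.9 CPM in control and at 92.6, 114 and 109 in the Msi1 knockdown. The Msi2 knockdown libraries held 138, 162 and 149 CPM and the double-knockdown libraries 133, 129.8 and 136. All 4 groups were thus separate, with the Msi2 knockdown highest and the double knockdown between it and the Msi1 knockdown. The change against control was 1.20 ± 0.09 (log2 ± standard error, 2.30-fold) in the Msi1 knockdown, 1.71 ± 0.09 (3.28-fold) in the Msi2 knockdown and 1.54 ± 0.09 (2.90-fold) in the double knockdown. SLC2A14, a near-identical neighbour of SLC2A3 with which reads can be shared, was listed at 0 to 15 counts per library, and the SLC2A3 changes kept their direction and side of the threshold in all 7 comparisons when both genes were summed.

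SLC2A1, the widely expressed basal transporter, was at 67.4, 76.6 and 64.8 CPM in control, 73.6, 91.3 and 89.2 in the Msi1 knockdown, 76.5, 89.2 and 82.3 on Msi2 knockdown and 83.0, 77.0 and 80.1 in the double knockdown. The libraries of both single knockdowns overlapped those of control, and those of the double knockdown lay just above them. Its log2 changes were 0.28 ± 0.08, 0.24 ± 0.08 and 0.20 ± 0.08, the last of which did not pass the threshold. The Msi1 value fell short of the threshold without control replicate 1, control replicate 3 or Msi1 replicate 2 (0.25, 0.24 and 0.22) or with the library trend in the model (0.13), and the Msi2 value without control replicate 1, control replicate 3 or Msi2 replicate 2 (0.21, 0.19 and 0.18). The double-knockdown value passed the threshold at 0.42 with the library trend in the model and at 0.26 without control replicate 2. It also passed at 0.20 without Msi1 replicate 1 or 3 or Msi2 replicate 1 or 3. Without the low-count filter it passed at 0.20, and with only the compared groups fitted at 0.19.

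Per kilobase of transcript (the longest annotated one of each gene), SLC2A3 made up 35.5% ± 2.75 of the summed level of both transporters in control (SD, n = 3). That share was 50.8% ± 0.37 in the Msi1 knockdown, 60.1% ± 0.071 on Msi2 knockdown and 57.98% ± 0.79 in the double knockdown. SLC2A1 was therefore the more abundant transporter RNA per length in control, and SLC2A3 in the Msi2 and double knockdowns. The summed level of both was 29.4 ± 2.25 CPM per kilobase in control and 46.9 ± 5.18, 56.4 ± 4.41 and 51.9 ± 1.30 on knockdown of Msi1, of Msi2 and of both.

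**Figure D2:**
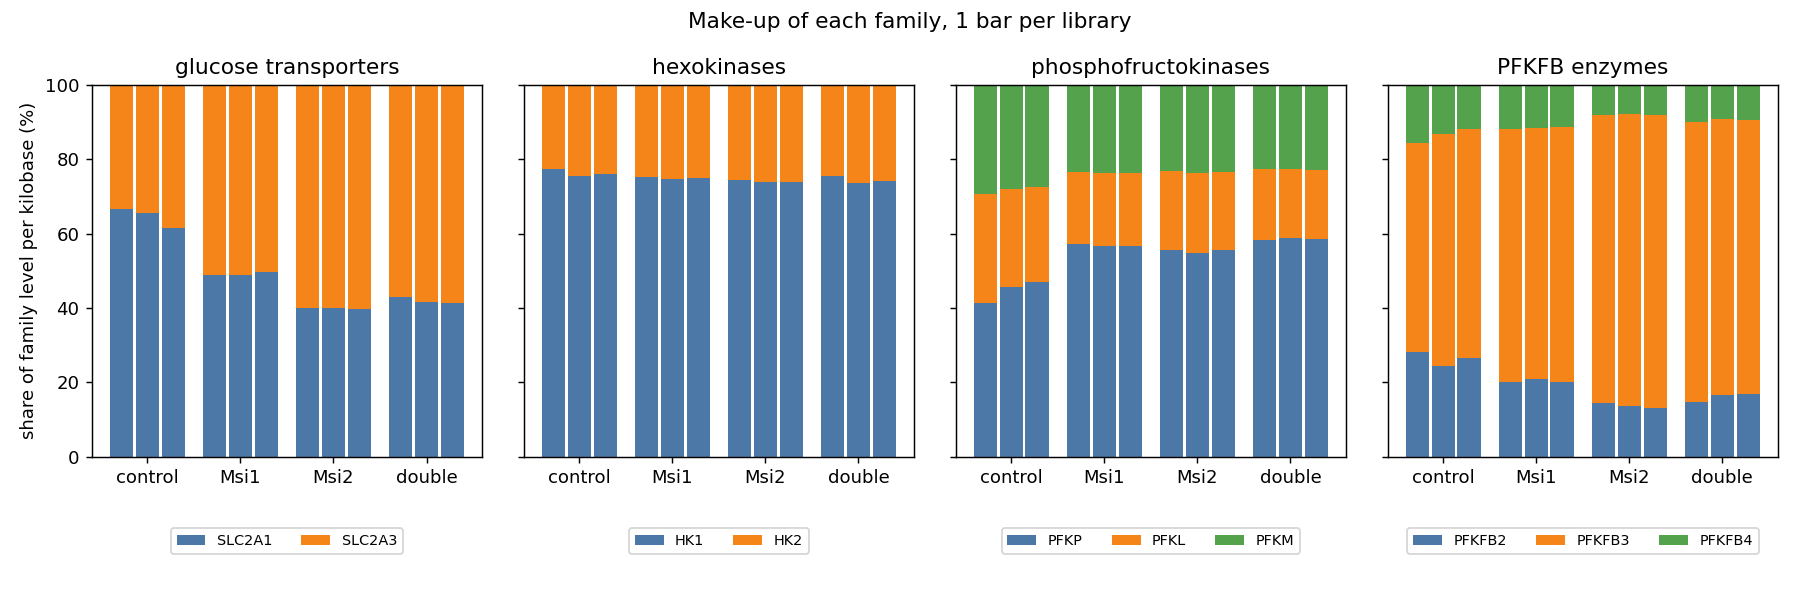
Share of each family's level per kilobase held by each gene, in percent, with 1 bar per library and 3 libraries per group. The SLC2A3, PFKP and PFKFB3 parts are larger in every knockdown library than in any control library, while the HK2 part stays between 22.5% and 26.5%.

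The upstream sequence of genes that were higher is shown beside that of PFKL, which did not pass the threshold as higher in any knockdown. Each run covers 250 bases before to 50 after the start of the gene in RefSeq (GRCh38.p14, plus strand, 5′ to 3′), and is reference sequence, not read from these cells. The positions are chr2:74833877-74834176 for HK2, chr10:3067720-3068019 for PFKP, chr10:6144671-6144970 for PFKFB3 and chr21:44299803-44300102 for PFKL. The submitters' processing notes name hg19, and the count table gives no positions. Capitals mark ACGTG or GCGTG on either strand (CACGT and CACGC are their reverse complements), the cores that hypoxia-inducible factors are known to bind.
HK2: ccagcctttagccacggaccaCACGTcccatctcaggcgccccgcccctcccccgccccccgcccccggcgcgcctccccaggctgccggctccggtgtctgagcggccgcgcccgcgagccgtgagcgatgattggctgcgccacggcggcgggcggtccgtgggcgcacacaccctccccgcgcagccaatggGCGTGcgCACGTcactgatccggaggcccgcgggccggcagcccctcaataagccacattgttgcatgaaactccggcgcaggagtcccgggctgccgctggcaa
PFKP: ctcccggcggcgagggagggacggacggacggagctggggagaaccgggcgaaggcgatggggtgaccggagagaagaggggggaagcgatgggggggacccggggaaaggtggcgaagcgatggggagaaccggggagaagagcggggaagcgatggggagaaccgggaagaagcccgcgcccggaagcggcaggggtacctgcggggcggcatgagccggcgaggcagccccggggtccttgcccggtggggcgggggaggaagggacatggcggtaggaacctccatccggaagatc
PFKFB3: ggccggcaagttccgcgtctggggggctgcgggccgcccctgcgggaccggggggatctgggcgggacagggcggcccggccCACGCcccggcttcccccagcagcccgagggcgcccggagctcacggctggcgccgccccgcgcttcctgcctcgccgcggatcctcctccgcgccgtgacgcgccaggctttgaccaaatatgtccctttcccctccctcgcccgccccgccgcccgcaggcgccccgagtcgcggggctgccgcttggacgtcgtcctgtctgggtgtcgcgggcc
PFKL: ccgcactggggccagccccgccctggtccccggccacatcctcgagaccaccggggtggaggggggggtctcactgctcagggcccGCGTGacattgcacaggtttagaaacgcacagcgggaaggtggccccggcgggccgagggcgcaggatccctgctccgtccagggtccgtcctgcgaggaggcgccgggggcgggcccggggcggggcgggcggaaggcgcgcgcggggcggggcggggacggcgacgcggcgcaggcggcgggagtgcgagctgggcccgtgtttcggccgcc
The promoter table matched 8 of the 10 members, all but SLC2A3 and PFKFB2. ACGTG occurred in 21.4% of the table's 35116 promoters and GCGTG in 36.5%, so single matches are common. The HK2 window held ACGTG at 229 and 48 bases before the start and GCGTG at 55, the latter pair lying 2 bases apart. GCGTG was also present once in PFKFB3 (168 bases before the start), PFKL (164), PFKFB4 (166) and SLC2A1 (after the start), and neither core was found in the PFKP, HK1 or PFKM window. The E-box CACGTG, present in 7.26% of all promoters and overlapping ACGTG, was in none of the 8 windows, and a kappaB match (11.3% of promoters) was in SLC2A1 and PFKM. These matches are a description of letters. HK2, PFKFB3 and PFKP passed the threshold as higher in every knockdown, and PFKL and PFKFB4 in none without the library trend in the model. Of these genes only PFKP had neither core in its window. Sequence outside the windows was not searched, and a link between the matches and the changes was not tested. PFKL still lay above all control libraries in the Msi2 knockdown.

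HK2, the inducible hexokinase, was at 66.2, 66.9 and 68.1 CPM in control, 93.6, 88.9 and 89.2 in the Msi1 knockdown, 86.4, 79.1 and 87.04 on Msi2 knockdown and 105, 105 and 101 in the double knockdown. Its 4 groups did not overlap, in the order control, Msi2, Msi1 and double knockdown. The log2 changes against control were 0.43 ± 0.06, 0.33 ± 0.06 and 0.63 ± 0.06 on knockdown of Msi1, of Msi2 and of both.

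HK1, the hexokinase expressed in most tissues, was at 158, 144 and 150.4 CPM in control, 196, 182 and 185 in the Msi1 knockdown, 173, 155 and 170.4 on Msi2 knockdown and 223, 203 and 202 in the double knockdown. The Msi2 libraries overlapped control, and the double-knockdown libraries were above all others. Its log2 changes were 0.32 ± 0.07 in the Msi1 knockdown, 0.14 ± 0.07 on Msi2 knockdown, which did not pass the threshold, and 0.48 ± 0.07 in the double knockdown. A fit that includes the library trend put the Msi2 value past it, at 0.17.

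The balance between the hexokinases shifted by a few percent. HK2 held 23.6% ± 0.96 of their summed level per kilobase in control and 25.03% ± 0.20, 26.0% ± 0.26 and 25.6% ± 0.93 on knockdown of Msi1, of Msi2 and of both (SD, n = 3), and its lowest share in a knockdown library, 24.6%, was just above its highest in control, 24.4%. The sum itself was 49.3 ± 1.69 CPM per kilobase in control, 62.7 ± 2.31 in the Msi1 knockdown, 56.1 ± 3.24 on Msi2 knockdown and 70.4 ± 3.30 in the double knockdown.

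PFKP, the platelet-type phosphofructokinase that many tumours express, was at 124, 152 and 154 CPM in control. It was at 231, 221 and 221 in the Msi1 knockdown, 259.9, 236 and 245 on Msi2 knockdown and 288, 268 and 269 in the double knockdown. The 4 groups were separate, and control replicate 1 was the lowest of all libraries. The log2 changes were 0.65 ± 0.08, 0.79 ± 0.08 and 0.95 ± 0.08, or 1.57-, 1.73- and 1.93-fold.

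PFKL, the liver-type enzyme, was at 190.3, 190.5 and 181 CPM in control, 169, 166 and 164 in the Msi1 knockdown, 215, 201 and 200.2 on Msi2 knockdown and 206, 184 and 185 in the double knockdown. It was lower than all control libraries in the Msi1 knockdown, higher than all on Msi2 knockdown, and overlapping them in the double knockdown. The log2 changes were -0.17 ± 0.06, 0.13 ± 0.06 and 0.03 ± 0.06, and only the first was past the threshold. That call was lost without control replicate 1 (-0.15), control replicate 2 (-0.16), Msi1 replicate 2 (-0.16), Msi1 replicate 3 (-0.15) or Msi2 replicate 1 (-0.16), without the low-count filter (-0.17), in libraries thinned to equal depth (-0.15) or with only the compared groups fitted (-0.16), and with the library trend in the model the Msi2 value passed at 0.13.

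PFKM, the muscle-type enzyme, was at 114, 121 and 117 CPM in control, 122, 119 and 119.6 in the Msi1 knockdown, 139, 132 and 134 on Msi2 knockdown and 144, 132 and 136 in the double knockdown. Control and Msi1 libraries overlapped, and the Msi2 and double-knockdown libraries were above both. The log2 changes were 0.04 ± 0.06, which did not pass the threshold, 0.21 ± 0.06 and 0.23 ± 0.06. Without control replicate 1 the Msi2 value (0.18) did not pass.

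PFKP made up 44.6% ± 2.97 of the summed phosphofructokinase level per kilobase in control and 56.9% ± 0.31, 55.3% ± 0.54 and 58.5% ± 0.33 on knockdown of Msi1, of Msi2 and of both (SD, n = 3). The shares of PFKL and PFKM were 27.1% ± 2.00 and 28.3% ± 0.97 in control, and lay between 18.8% and 23.6% on average in the knockdowns. Without length scaling PFKL held the largest share in control, at 41.9%, beside 31.9% for PFKP and 26.2% for PFKM. On that scale PFKP held 43.9%, 42.0% and 45.5% on knockdown of Msi1, of Msi2 and of both. The summed level was 116 ± 6.53 CPM per kilobase in control and 142 ± 2.95, 161 ± 6.71 and 169.7 ± 7.85.

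PFKFB3 was at 39.9, 50.2 and 46.6 CPM in control and 59.5, 58.5 and 59.7 in the Msi1 knockdown. The Msi2 libraries held 96.96, 90.6 and 96.5 CPM and the double-knockdown libraries 84.4, 78.5 and 78.5. The 4 groups were separate, and the double knockdown lay between the Msi1 and Msi2 knockdowns, as for SLC2A3. The log2 changes were 0.38 ± 0.07 (1.30-fold), 1.06 ± 0.07 (2.08-fold) and 0.83 ± 0.07 (1.77-fold).

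PFKFB2, the form known from heart, was at 31.4, 30.8 and 31.4 CPM in control, 27.7, 28.5 and 27.7 in the Msi1 knockdown, 28.1, 24.9 and 25.02 on Msi2 knockdown and 26.0, 27.3 and 28.1 in the double knockdown. All knockdown libraries were below all control libraries and overlapped one another. The log2 changes were -0.16 ± 0.07, which did not pass the threshold, -0.26 ± 0.07 and -0.20 ± 0.07. The last did not pass without control replicate 1 (-0.19), without double-knockdown replicate 1 (-0.17) or with the library trend in the model (-0.19).

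PFKFB4, a hypoxia-inducible form, was the least abundant member, at 7.10 to 8.72 CPM in control, and at 7.88 to 8.26, 7.27 to 7.93 and 7.67 to 8.75 on knockdown of Msi1, of Msi2 and of both. All groups overlapped. Its log2 changes were -0.04 ± 0.09, -0.11 ± 0.09 and -0.02 ± 0.09, none past the threshold. Per kilobase, PFKFB3 held 60.1% ± 3.34 of the 3 forms in control and 67.9% ± 0.47, 78.3% ± 0.63 and 74.5% ± 0.85 on knockdown of Msi1, of Msi2 and of both (SD, n = 3), while PFKFB2 held 26.4% ± 1.92 in control and 13.7% ± 0.65 in the Msi2 knockdown. Without length scaling PFKFB3 held 53.6% in control and 73.8% in the Msi2 knockdown, and PFKFB2 36.9% and 20.3%.

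Ordered by mean level per kilobase in control, PFKP (51.7 ± 6.12 CPM per kilobase) was followed by HK1 (37.6 ± 1.74), PFKM (32.7 ± 0.97), PFKL (31.2 ± 0.87), SLC2A1 (19.0 ± 1.70), HK2 (11.6 ± 0.17), SLC2A3 (10.4 ± 1.09), PFKFB3 (10.1 ± 1.15), PFKFB2 (4.40 ± 0.048) and PFKFB4 (2.25 ± 0.24). SLC2A3 and PFKFB3 differed there by less than their SD. The order depends on the transcript lengths used. In CPM without length scaling, PFKL (187 ± 5.25) was above HK1 (150.5 ± 6.97) and PFKP (143 ± 17.0) in control. In the Msi2 knockdown SLC2A3 (33.9 ± 2.67) and PFKL (34.2 ± 1.37) differed by less than their SD, and SLC2A1 (22.5 ± 1.73) and PFKFB3 (20.9 ± 0.79) came next.

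**Figure D3:**
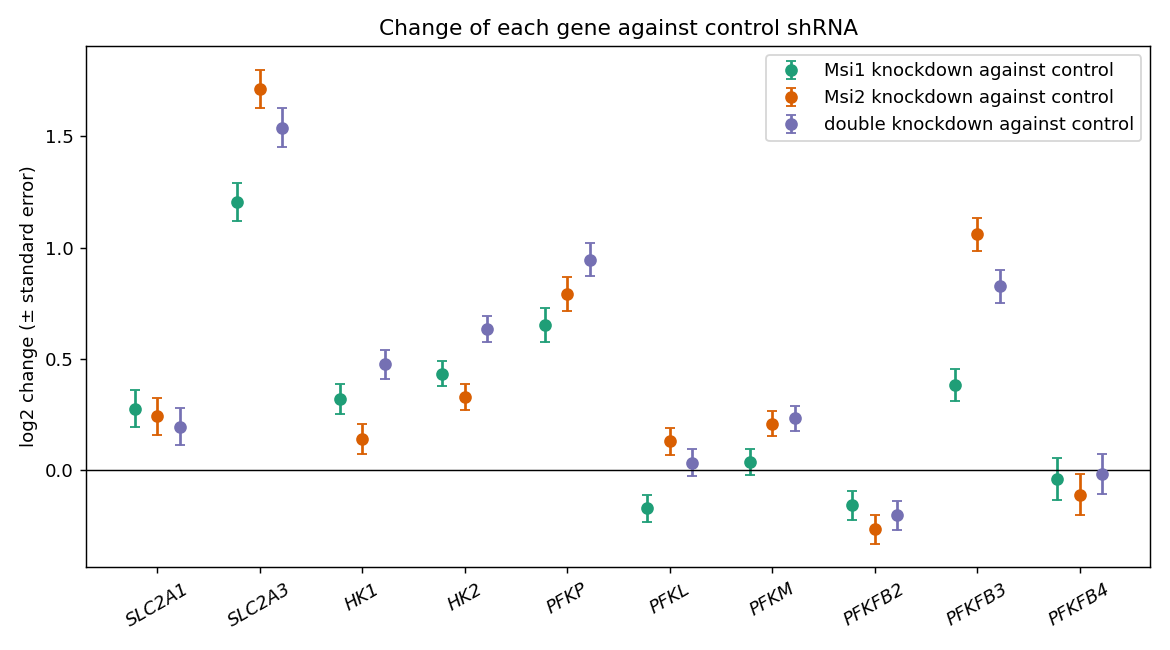
Log2 change of each gene against control shRNA in the 3 knockdowns, with the standard error of the fit as whiskers and a line at 0. SLC2A3 and PFKFB3 are highest in the Msi2 knockdown, PFKP, HK1 and HK2 in the double knockdown.

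The knockdowns were then compared with each other, which uses no control library for the means. It does use the knockdown libraries whose changes against control were known when the members were chosen. The adjusted p-values of these comparisons are therefore not independent of that choice. In the Msi2 against the Msi1 knockdown, 4 members were higher and 1 lower, with 22.3% and 18.9% of all tested genes higher and lower. PFKFB3 was higher in the Msi2 knockdown by 0.68 ± 0.07 (adjusted p = 2.98e-07), SLC2A3 by 0.51 ± 0.08 (adjusted p = 5.34e-05), PFKL by 0.30 ± 0.06 (adjusted p = 0.000547) and PFKM by 0.17 ± 0.06 (adjusted p = 0.0194). HK1 was lower there, at -0.18 ± 0.06 (adjusted p = 0.0329). All 3 Msi2 libraries lay above all 3 Msi1 libraries for the former 4 genes and below them for HK1. The differences of the other members did not pass the threshold, with 95% intervals of -0.20 to 0.13 for SLC2A1, -0.22 to 0.01 for HK2, -0.02 to 0.29 for PFKP, -0.24 to 0.03 for PFKFB2 and -0.25 to 0.12 for PFKFB4. The PFKM call was lost without Msi1 replicate 2 or 3 (0.15 each) or Msi2 replicate 1 (0.14), or in thinned libraries (0.14), and the HK1 call without Msi1 replicate 1 or Msi2 replicate 2 (-0.14 each) or without the low-count filter (-0.17). HK2 passed under a stricter filter (-0.14) and with the library trend (-0.15). With the fit limited to the compared groups 3 members passed, without PFKM (0.15) and HK1 (-0.20), beside 36.6% of all genes.

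Against the Msi1 knockdown, the double knockdown showed 7 members higher and 0 lower by edgeR (also 7 and 0 at an unadjusted p under 0.05 and by DESeq2), where 29.9% of all tested genes were higher and 26.2% lower. PFKFB3 was higher by 0.44 ± 0.07 (adjusted p = 4.96e-05), SLC2A3 by 0.33 ± 0.08 (adjusted p = 0.00194), PFKP by 0.29 ± 0.07 (adjusted p = 0.00247), PFKL by 0.20 ± 0.06 (adjusted p = 0.00787), HK2 by 0.20 ± 0.06 (adjusted p = 0.00563), PFKM by 0.19 ± 0.06 (adjusted p = 0.00639) and HK1 by 0.16 ± 0.06 (adjusted p = 0.0467). The intervals of the other 3 were -0.25 to 0.09 for SLC2A1, -0.18 to 0.09 for PFKFB2 and -0.16 to 0.21 for PFKFB4. With the library trend in the model only SLC2A3 (0.66) and PFKFB3 (0.44) passed, where the share of all genes called went from 56.0% to 4.78%, and HK1 turned to -0.07. Without Msi1 replicate 2 the count was 4, beside 42.1% of all genes (HK2 at 0.17, PFKM at 0.17 and HK1 at 0.12 were lost). Without double-knockdown replicate 1 PFKL (0.15) was lost. HK1 was lost in 10 of the 12 omissions of a library, with values of 0.11 to 0.16. In thinned libraries PFKL (0.12) and HK1 (0.10) were lost. HK1 was also lost with RLE factors (0.15), without the low-count filter (0.16), under a stricter filter (0.11) or with only the compared groups fitted (0.14).

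Against the Msi2 knockdown, the double knockdown had 2 members higher and 1 lower, with 22.7% and 22.5% of all tested genes higher and lower. HK1 was higher by 0.34 ± 0.06 (adjusted p = 0.000398) and HK2 by 0.30 ± 0.06 (adjusted p = 0.000252), while PFKFB3 was lower, at -0.23 ± 0.07 (adjusted p = 0.00923). The libraries of the compared groups did not overlap for these 3 genes. SLC2A3 was at -0.17 with an interval of -0.34 to -0.01 and an adjusted p above the threshold. It passed the threshold without Msi1 replicate 1 or with only the compared groups fitted (-0.17 each). PFKP had an interval of 0.00 to 0.31 and passed without control replicate 1 (0.16), and PFKL passed in thinned libraries (-0.18). In the fit with the library trend HK1 (0.17) and PFKFB3 (-0.23) did not pass, HK2 did, and SLC2A1 turned to a higher value that passed (0.22).

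**Figure D4:**
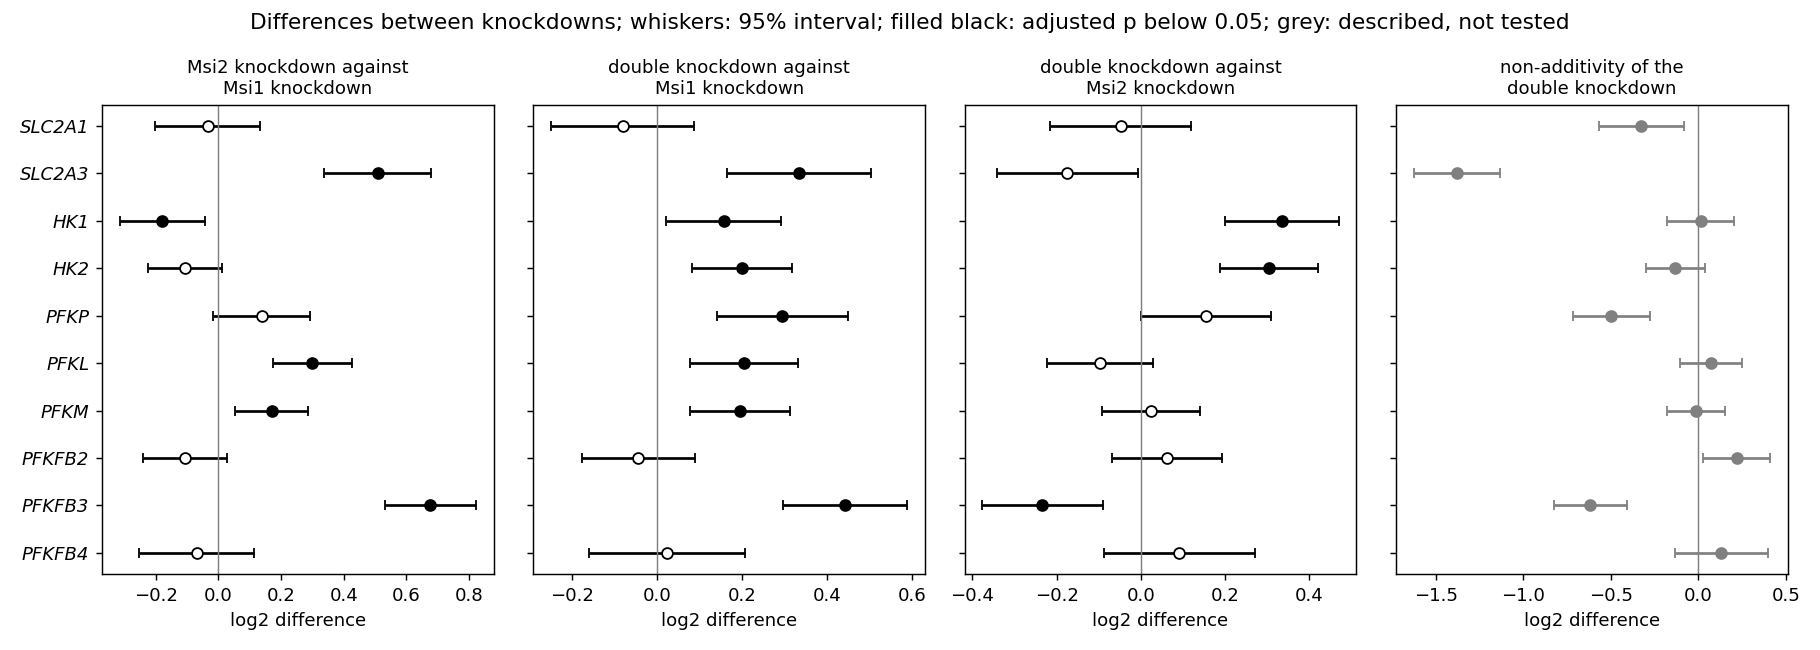
Log2 differences between knockdowns for each gene, and, at right, the departure of the double knockdown from additivity. Points are the fitted differences, whiskers their 95% intervals, and filled black points have an adjusted p below 0.05, while grey points are given as a description. SLC2A3, PFKP and PFKFB3 lie clearly left of 0 in the non-additivity panel, and SLC2A1 nearer to it.

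Non-additivity is the log2 change of the double knockdown minus the sum of both single changes, all against control. By edgeR it was negative for 4 members and positive for 0 past the threshold (4 and 1 at an unadjusted p under 0.05, 4 and 0 by DESeq2), where 21.3% of all tested genes were positive and 19.1% negative. It uses the control libraries that are part of the changes above, and choosing genes that are high against control can itself push it down, so it is given as a description without p-values and nothing is read from these counts. SLC2A3 changed by 1.54 in the double knockdown where the single changes sum to 2.92, a difference of -1.38 ± 0.12. PFKFB3 changed by 0.83 against a sum of 1.44 (-0.62 ± 0.10), PFKP by 0.95 against 1.44 (-0.50 ± 0.11) and SLC2A1 by 0.20 against 0.52 (-0.32 ± 0.12). For both hexokinases the intervals included 0, at -0.18 to 0.21 for HK1 and -0.30 to 0.04 for HK2, whose double change of 0.63 stood beside a sum of 0.76. The intervals were -0.11 to 0.25 for PFKL, -0.18 to 0.15 for PFKM, 0.03 to 0.41 for PFKFB2 and -0.13 to 0.40 for PFKFB4. Fitted with the library trend, SLC2A1 turned to 0.09 and 3 members passed. SLC2A1 also fell short without control replicate 1 or 3 (-0.29 each), double-knockdown replicate 2 (-0.31), Msi1 replicate 2 (-0.28) or 3 (-0.29), or Msi2 replicate 2 (-0.28), and PFKFB2 passed without Msi2 replicate 1 (0.27).

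Over the 12 libraries, the log2 levels of SLC2A3 and PFKP had a Pearson r of 0.94, HK1 and HK2 one of 0.94, and PFKM and PFKFB3 one of 0.91. PFKFB2 ran opposite to SLC2A3 with an r of -0.89. These are descriptions over 12 libraries that share 4 groups and their depth. Among 9818 well-expressed genes, with members left out of the ranking, those most like SLC2A3 were SRGN, GCNT2 and SLC16A3 (r = 0.98 each). Of these SLC16A3 exports lactate. Most like PFKP were MAFF, FERMT2 and PDE8A (r = 0.98 each), and most like PFKFB3 were C15orf48 (r = 0.98), NGEF and MYH10 (r = 0.97 each).

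Other genes of the pathway were counted by list. These lists were chosen with earlier results of the same libraries known, and the named genes are those of smallest p. Their adjusted p-values are therefore not independent of that choice. Beside the counts, 18.5% of all tested genes were higher and 20.9% lower in the Msi1 knockdown. The shares were 16.7% and 13.6% in the Msi2 and 26.6% and 25.3% in the double knockdown. Nothing is read from the list counts here or below. Of 9 other glucose transporters tested, 0 were higher or lower in the Msi1 knockdown by edgeR (0 also at an unadjusted p under 0.05 and by DESeq2), on Msi2 knockdown 1 was higher and 1 lower, and 0 were higher and 4 lower in the double knockdown (the same counts unadjusted and by DESeq2), with list medians of -0.14, -0.15 and -0.47. SLC2A4, the insulin-responsive transporter, was higher in the Msi2 knockdown by 1.12 ± 0.19 (adjusted p = 0.000171). It was a rare transcript, at 1.23 ± 0.32 CPM in control and 2.80 ± 0.45 in the Msi2 knockdown (SD, n = 3). SLC2A12 was lower in the Msi2 knockdown by -0.52 ± 0.10 and in the double knockdown by -0.91 ± 0.10 (adjusted p = 0.000542 and 6.27e-07). In the fit with the library trend 4 of these other transporters passed in the Msi1 knockdown, 0 higher and 4 lower. In the Msi2 knockdown 4 passed, 1 higher and 3 lower. The list of other upper glycolysis enzymes also held genes that oppose those steps, so its counts join both kinds. It had 4 of 7 higher in the Msi1 knockdown, 2 higher and 1 lower on Msi2 knockdown and 3 higher in the double knockdown. The medians were 0.31, 0.03 and 0.17. The opponents G6PC3 and SLC37A4 were the 2 higher on Msi2 knockdown (0.29 ± 0.08 and 0.25 ± 0.07). With TIGAR they were the 3 higher in the double knockdown (0.21 ± 0.08 and 0.22 ± 0.07). HKDC1, a hexokinase relative, was higher by 0.31 ± 0.10 in the Msi1 knockdown and lower by -0.32 ± 0.10 on Msi2 knockdown. On this list ADPGK, an ADP-dependent glucokinase, was higher by 0.49 ± 0.08 in the Msi1 knockdown (adjusted p = 5.5e-05). TIGAR, which breaks down fructose 2,6-bisphosphate, was higher by 0.50 ± 0.09 in the double knockdown (adjusted p = 7.64e-05).

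Lower glycolysis, the enzymes from aldolase to pyruvate kinase, had 0 of 11 tested members higher and 2 lower in the Msi1 knockdown by edgeR (0 and 3 at an unadjusted p under 0.05, 0 and 2 by DESeq2), 1 higher and 1 lower in the Msi2 knockdown, and 7 higher and 2 lower in the double knockdown. The list medians were -0.12, 0.01 and 0.25. ALDOA, ENO1 and PGAM1 were higher in the double knockdown by 0.52 ± 0.09, 0.42 ± 0.08 and 0.40 ± 0.08 (adjusted p = 6.24e-05, 0.000303 and 0.000422), and in the Msi1 knockdown they were at 0.04, 0.01 and -0.06, none past the threshold. PKM, the last enzyme of the pathway, was lower in the Msi1 knockdown by -0.26 ± 0.08 (adjusted p = 0.0106), and ALDOC by -0.53 ± 0.10 (adjusted p = 0.000224). Fitted with the library trend, the counts were 2 higher and 4 lower, 3 higher and 2 lower, and 3 higher and 0 lower.

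For lactate and pyruvate handling, 5 of 18 were higher and 8 lower in the Msi1 knockdown, 6 and 4 on Msi2 knockdown and 7 and 4 in the double knockdown, with medians of -0.12, 0.06 and 0.09. The lactate exporter SLC16A3 was higher in all 3, by 0.58 ± 0.08, 0.78 ± 0.08 and 0.67 ± 0.08 (adjusted p = 9.78e-06, 5.63e-07 and 1.34e-06), and its relative SLC16A1 was higher by 0.57 ± 0.08 in the Msi1 knockdown (adjusted p = 1.19e-05). PDK4, a kinase that shuts off pyruvate dehydrogenase, was lower in the Msi1 knockdown by -1.44 ± 0.21 and in the double knockdown by -1.19 ± 0.19 (adjusted p = 1.54e-05 and 4.44e-05). Its level was low, at 3.80 ± 1.05 CPM in control, 1.32 ± 0.14 in the Msi1 and 1.58 ± 0.34 in the double knockdown (SD, n = 3). LDHB was a rare transcript, at 16 to 46 counts per library in control and 0 to 5 in the Msi2 knockdown.

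Branches that leave the upper pathway were mixed. Of 8 pentose phosphate genes, 1 was higher and 4 lower in the Msi1 knockdown, 2 and 2 on Msi2 knockdown, and 4 and 0 in the double knockdown by edgeR, unadjusted p and DESeq2 alike (medians -0.16, 0.04 and 0.12). PGD, an NADPH-producing enzyme of that route, was lower by -0.45 ± 0.07 in the Msi1 and -0.47 ± 0.07 in the Msi2 knockdown (adjusted p = 6.66e-05 and 7.14e-05). H6PD, which also makes NADPH, was higher in both, by 0.38 ± 0.08 and 0.41 ± 0.08 (adjusted p = 0.000661 and 0.000469), and RPIA was higher by 0.63 ± 0.08 in the double knockdown (adjusted p = 2.12e-06). Of 13 genes of the hexosamine pathway and glycogen, 3 were higher and 3 lower in the Msi1 knockdown, 4 and 1 on Msi2 knockdown, and 8 and 2 in the double knockdown (medians -0.05, 0.10 and 0.24); with the library trend in the model the Msi2 counts were 6 and 3. GFPT1, which opens the hexosamine route, was lower in the Msi1 knockdown by -0.63 ± 0.07 (adjusted p = 3.49e-07), and the glycogen synthase GYS1 was higher in the Msi2 knockdown by 0.40 ± 0.06 (adjusted p = 2.26e-05).

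Among 17 tested regulators of glycolysis, 4 were higher and 6 lower in the Msi1 knockdown, 7 and 4 on Msi2 knockdown and 8 and 5 in the double knockdown, with medians of -0.08, 0.06 and 0.11. MYC, a transcription factor with glycolytic targets, was higher by 0.44 ± 0.06 in the Msi2 and 0.52 ± 0.06 in the double knockdown (adjusted p = 2.13e-05 and 1.29e-06). TXNIP, a protein that lowers glucose uptake, was lower in the double knockdown by -0.66 ± 0.08 (adjusted p = 9.84e-07), and EPAS1, a hypoxia-inducible factor, was higher there by 1.31 ± 0.13 (adjusted p = 1.09e-07).

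Hypoxia targets outside glycolysis were called in both directions. Of 18 tested, 8 were higher and 5 lower in the Msi1 knockdown, 4 and 2 on Msi2 knockdown, and 5 and 5 in the double knockdown, with medians of 0.25, 0.13 and 0.02. ANGPTL4 was higher in all 3 knockdowns, by 0.84 ± 0.11, 0.87 ± 0.11 and 0.74 ± 0.11 (adjusted p = 4.88e-06, 5.67e-06 and 1.32e-05). BNIP3L, a mitophagy receptor, was lower by -1.03 ± 0.08 in the Msi1 and -0.55 ± 0.08 in the double knockdown (adjusted p = 6.45e-09 and 9.93e-06), and NDRG1 by -0.88 ± 0.10 in the Msi1 knockdown (adjusted p = 5.38e-07).

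Some markers of other cell types moved with the members. The summed level of 8 blood cell markers was 17.3 to 20.01 CPM in control, and 36.9 to 43.2, 46.9 to 47.4 and 48.3 to 52.6 on knockdown of Msi1, of Msi2 and of both; CD68, a lysosomal protein, made up most of it (15.97 ± 1.16 CPM in control and 46.97 ± 2.00 in the double knockdown), PTPRC had at most 4 counts in any library and 1 marker was at 0 in all. For 6 endothelial markers the sums were 7.37 to 8.63, 27.6 to 34.6, 13.2 to 13.7 and 20.5 to 22.9 CPM, mostly CDH5 (6.42 ± 0.45 in control and 30.5 ± 3.89 in the Msi1 knockdown). Of the 3 that were tested CDH5 was called higher in each knockdown, PECAM1 was called lower in the double knockdown (0.89 ± 0.13 CPM in control and 0.55 ± 0.061 there) and VWF was called in none. The sums of 8 fibroblast markers were 603 to 739, 660.04 to 804, 776 to 887 and 549 to 642 CPM. Those of 7 pancreatic acinar and ductal markers were 249 to 262, 246 to 272, 186 to 201 and 237 to 251 CPM, and the 3 tested ones (KRT19, SOX9 and CEL) were all called lower in the Msi2 knockdown, with a median of -0.42. The 6 neuronal and packaging cell markers summed to 60.6 to 65.5, 55.6 to 58.9, 58.9 to 65.8 and 52.09 to 57.1 CPM. Nearly all of that sum was ENO2 (61.4 ± 2.73 CPM in control and 53.2 ± 2.40 in the double knockdown), an enolase also counted under lower glycolysis. The part of all these markers in the results was not tested, and in such bulk libraries a change in the number of cells of a type and in RNA per cell cannot be told apart.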

How the data were processed

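The authors' deposited table held estimated counts per gene, as whole numbers; kallisto 0.42.1, CASAVA 1.4 and hg19 are named, without roles, in the submitters' processing notes, and the strand setting is not given in the sources used here. Groups came from sample titles. Counts were tested as deposited with edgeR 4.0.16 (R 4.3.3): filterByExpr with a minimum count of 10, TMM scaling, and a robust quasi-likelihood fit of all 12 libraries with a mean per group. Tests were two-sided, with Benjamini-Hochberg adjustment over 15021 genes at 0.05. A standard error is the log2 change over the root of its F value. An exact permutation test of 3 against 3 cannot go below p = 0.1. Totals of 10.9e6 counts or more put each member at 79 counts or more in each library. Levels per kilobase used the longest GENCODE transcript.

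The members and gene lists were chosen with earlier results of these data known. All 10 members are named, with MSI1, MSI2, SLC2A14, for each pathway list up to 3 genes of smallest p among those past the threshold in each comparison with control, and, for likeness, the 3 genes of highest r; cell type markers were taken as lists. Some genes this rule picked are not reported here. Library pairs within groups differed beyond sampling noise (chi-square per degree of freedom 3.65 to 33.7). The scripts were tested on simulated data. Alternatives were DESeq2 1.42.0, RLE factors, other filters, thinned libraries, the library trend, the replicate block, the compared groups only, omission of each library and unscaled lengths.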

Additional observations from a re-analysis of the deposited data

Results flagged for a closer look

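The log2 change of the double knockdown and the sum of the single changes differed past the threshold of edgeR's interaction term for 4 members. The difference was -0.32 for SLC2A1, -1.38 for SLC2A3, -0.50 for PFKP and -0.62 for PFKFB3. These genes were chosen with their changes against control known, and the values share those control libraries, so they are a description and do not test whether either shRNA acted differently in the presence of the other. The double-knockdown libraries stand apart on the library trend. With the trend as a term, SLC2A3 (-1.03), PFKP (-0.56) and PFKFB3 (-0.62) were past the threshold and SLC2A1 (0.09) was not.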

How the results depend on the processing

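The number of members called stayed within 1.5 times its value in 5 of the 7 comparisons under all alternatives run. In the Msi2 against the Msi1 knockdown it was 3 with the compared groups only, and in the double against the Msi1 knockdown it was 2 with the library trend and 4 to 7 when 1 library was left out. Directions turned for these values, most of them near 0, and the cause was not tested. In the fit with the library trend, SLC2A1 was at 0.071 in the Msi2 against the Msi1 knockdown, 0.29 in the double against the Msi1, 0.22 in the double against the Msi2 and 0.088 for non-additivity; HK1 was at -0.068 in the double against the Msi1 knockdown and -0.23 for non-additivity; PFKFB4 was at -0.083 in the double against the Msi1 and SLC2A3 at 0.058 in the double against the Msi2 knockdown. In libraries thinned to equal depth, PFKL was at -0.032 and PFKFB4 at 0.086 in the double knockdown against control, and non-additivity was -0.031 for PFKL and 0.0075 for PFKM. Under the stricter filter PFKFB4 was at -0.024 in the double against the Msi1 knockdown and HK1 non-additivity at -0.018. With 1 library left out, the range was -0.088 to 0.022 for PFKFB4 in the Msi1 knockdown and -0.083 to 0.039 in the double knockdown against control, -0.017 to 0.049 for PFKL in the double knockdown, -0.12 to 0.011 for SLC2A1 in the Msi2 against the Msi1 knockdown, -0.030 to 0.048 for PFKFB4 in the double against the Msi1, -0.093 to 0.0019 for SLC2A1 and -0.013 to 0.052 for PFKM in the double against the Msi2, and -0.046 to 0.048 for HK1 and -0.051 to 0.011 for PFKM as non-additivity.

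The share of all tested genes called moved more. Under the library trend it went from 45.2% to 18.0% in the double against the Msi2 knockdown and from 40.3% to 3.94% for non-additivity, and without control replicate 1 from 30.3% to 19.7% in the Msi2 knockdown against control. Replicate numbers matched the libraries across groups only in part. Deviations of same-numbered libraries correlated at -0.54 to 0.70 over 18 pairs, and those of other numbers at -0.81 to 0.70 over 36 pairs. Of 12 libraries, 7 correlated best with their own number. Replicate 1 libraries correlated at 0.04 to 0.36 and replicate 2 of control, Msi1 and Msi2 knockdown at 0.59 to 0.70. Replicate 3 libraries ran from -0.54 to 0.49. With the number as a replicate block, 8 members passed in the Msi2 (beside 33.1% of all genes) and 8 in the double knockdown against control (54.4%), and HK1 in the Msi2 knockdown (0.14), SLC2A1 in the double knockdown (0.20) and SLC2A3 in the double against the Msi2 knockdown (-0.17) were gained. Control replicate 3 was the shallowest library, at 10.9e6 counts, and PFKFB4, at 79 counts or more, is the member whose precision depth limits most.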
